A study of Mus musculus with 6 samples.

Results

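Microglial nuclei from mice with tau P301S and no Apoe (P301S/EKO) were compared with microglial nuclei from mice with APOE4 and no tau transgene (E4). The comparison used 4 single-nucleus RNA-seq libraries of the series' 6, namely P301S/EKO/TREM2+ with E4/TREM2+ and P301S/EKO/TREM2- with E4/TREM2-, so that each background was present once with Trem2 and once without it. Nuclei were kept when they had at least 200 detected genes, at most 5% mitochondrial UMIs and fewer than 3 UMIs summed over F13a1, Mrc1, Cd163, Cd209f and Cbr2, markers of border-associated macrophages. This left 18074 of the 19730 deposited nuclei of the 4 libraries, out of 30879 kept of 33335 in the whole series. Every library was 1 pool of hippocampi from 3 mice aged 9.5 months, and nuclei were sorted for the myeloid transcription factor PU.1 before capture on the 10x Genomics platform. Because 1 pool stands for each genotype, the replication lies across the 2 TREM2 genotypes, and spread between mice was not measured. Tau and Apoe differed together between the groups, so an effect of the transgene and an effect of the Apoe genotype cannot be told apart in any value that follows. The promoter of the tau transgene is not given in the sources used here.

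Microglia are the resident macrophages of the brain. In tissue with tau or amyloid pathology they lower homeostatic genes such as P2ry12 and raise a disease-associated (DAM) programme of lipid-handling, lysosomal and secreted genes, part of which depends on the lipid receptor TREM2 and its ligand apolipoprotein E. A second programme is the type I interferon response, in which STAT and IRF factors switch on antiviral genes and MHC class I presentation. Human tau carrying the P301S mutation forms aggregates in neurons and leads to neurodegeneration, and APOE4 is the risk form of apolipoprotein E for Alzheimer disease. The question addressed here was which activation genes were present in nuclei of tau mice although Apoe was absent.

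The kept nuclei gave 3625785 UMIs in P301S/EKO/TREM2+ (3530 nuclei, median 804 UMIs), 3121838 in P301S/EKO/TREM2- (4982 nuclei, median 568), 3416170 in E4/TREM2+ (4935 nuclei, median 569) and 3810413 in E4/TREM2- (4627 nuclei, median 707). Deposited nuclei reached down to 224 UMIs in P301S/EKO/TREM2-, and their minimum was between 413 and 500 in the other 3, and all 307 nuclei under 200 detected genes were from P301S/EKO/TREM2-. Pairs of the 4 libraries shared 5 to 7 cell barcodes, at most 0.161% of the smaller library. The sorted nuclei carried microglia markers: 98.6% to 99.7% of kept nuclei per library had at least 3 UMIs over 18 microglia markers. Markers of T and NK cells summed to only 3 to 16 UMIs per library. The filter on border-associated macrophages removed 1.45% and 1.35% of nuclei in P301S/EKO, against 3.01% and 4.16% in E4 and 2.21% and 3.54% in P301S/E4.

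The genotype genes came first. Apoe (chromosome 7, 19696109 to 19699188, GRCm38) had 49 UMIs in P301S/EKO/TREM2+ and 27 in P301S/EKO/TREM2-, against 438 in E4/TREM2+ and 514 in E4/TREM2-. The log2 fold change, P301S/EKO minus E4, was -3.64 ± 0.22 (SE, edgeR quasi-likelihood test, adjusted p = 2.06e-05). The features are mouse genes, and how reads of an APOE4 allele were assigned to Apoe was not analysed here. Trem2 (chromosome 17, 48346401 to 48354147) was 987 and 934 counts per 1000000 UMIs (CPM) in the TREM2+ libraries of P301S/EKO and E4, and 473 and 360.3 CPM in their TREM2- libraries. Transcripts assigned to Trem2 thus remained in both TREM2- libraries, and which part of the gene is deleted is not given in the sources used here. Mapt, the mouse tau gene, was 44.4 and 45.8 CPM in the P301S/EKO libraries and 19.3 and 24.1 CPM in E4, a difference that did not pass the test (log2 fold change 0.99 ± 0.31, adjusted p = 0.146). Without nuclei holding neuronal or glial markers it was 1.74 and passed (adjusted p = 0.00533), and with only the 4 libraries in the fit it also passed (adjusted p = 0.00382).

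Members of the activation lists were called higher at a larger share than all tested genes. With 0.05 as the limit for the Benjamini-Hochberg adjusted p, the fit tested 12403 genes and called 379 (3.06%), 227 of them higher in P301S/EKO (1.83%) and 152 lower (1.23%), with a median log2 fold change over all genes of -0.0019. Of 182 genes on 10 activation lists, 180 matched a feature and 167 had enough counts to be tested. Among these 167, 68 were called higher (40.7%, against 1.83% of all genes) and 5 lower. The other 159 of the 227 genes called higher were on no activation list. The lists were chosen with earlier results of these data known, so the 40.7% is not an independent result. Clec7a and Mx2 were not analysed here. These calls rest on a fit in which the 6 libraries share 1 estimate of spread, and the number called over all genes ranged from 139 without E4/TREM2+ to 1130 without P301S/E4/TREM2-, while the activation members called higher ranged from 51 to 94.

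**Figure D1:**
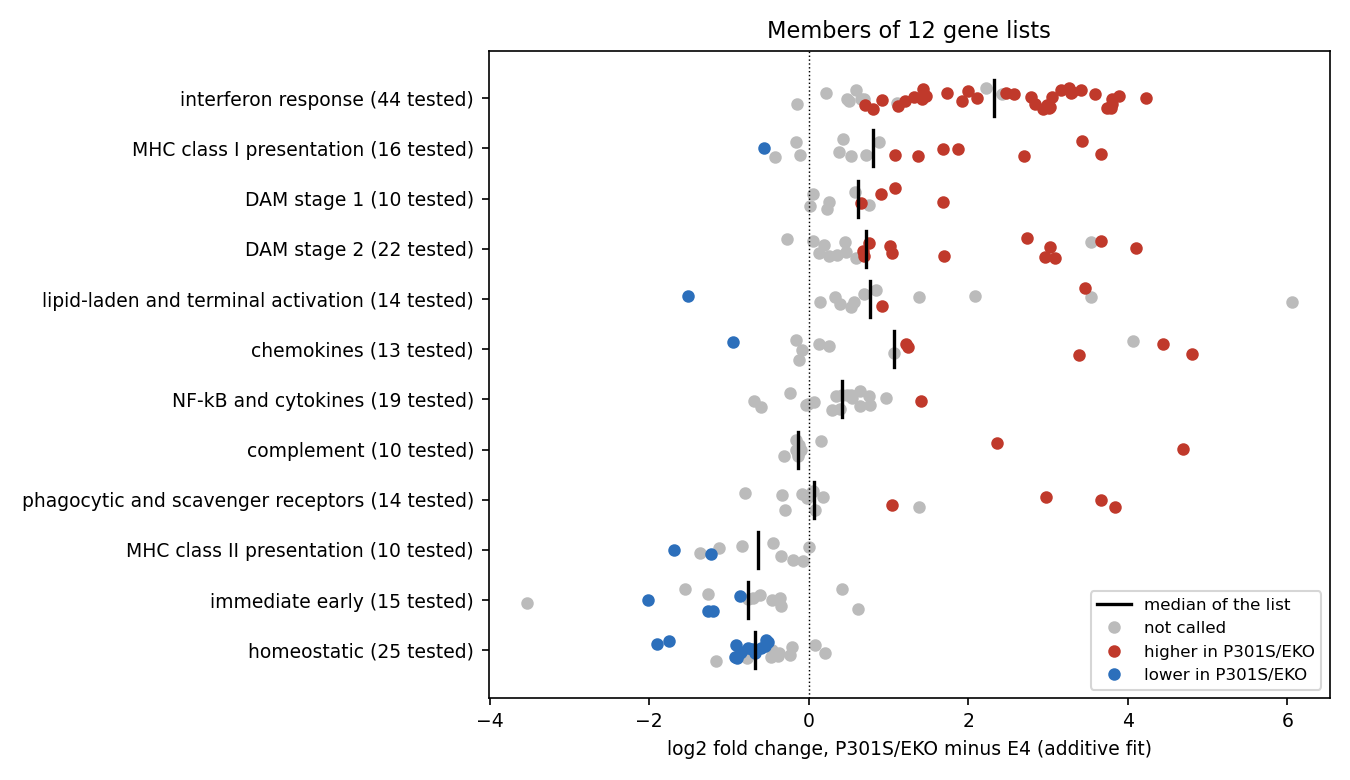
Log2 fold change (P301S/EKO minus E4, additive fit) of every tested member of 12 gene lists; each point is a gene, red called higher, blue called lower, grey not called, and the black bar is the list's median. The interferon response list lies furthest to the right (median 2.32), while MHC class II (-0.64), immediate early (-0.76) and homeostatic genes (-0.67) lie to the left.

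Interferon-response genes were the largest group to rise. Of 44 tested members 34 were called higher and 0 lower by edgeR, with a median log2 fold change of 2.32. DESeq2 called 33 higher and 0 lower, and at an unadjusted edgeR p of 0.05 or less 39 were higher and 0 lower. Ifi204, a DNA-sensing PYHIN protein, reached 319 CPM with TREM2 and 224 CPM without it in P301S/EKO, while E4 had 26.9 and 26.2 CPM. Both P301S/EKO libraries were above both E4 libraries, as they were for 27.6% of all tested genes, and the log2 fold change was 3.28 ± 0.16 (adjusted p = 7.36e-06). Oasl2, an antiviral 2'-5' oligoadenylate synthetase-like protein, was 139.6 and 105 CPM against 8.49 and 11.3 CPM (3.59 ± 0.26, adjusted p = 4.65e-05). Ifit1, Ifit2 and Ifit3, which bind foreign RNA, rose by 4.23 ± 0.44, 3.73 ± 0.25 and 3.16 ± 0.30 on the log2 scale. Ifit3, for instance, was 41.4 and 40.04 CPM in the P301S/EKO libraries and 4.68 and 4.20 CPM in E4. The GTPase Mx1 (3.05 ± 0.24), the nucleic acid sensor Zbp1 (3.02 ± 0.35) and the ubiquitin-like modifier Isg15 (2.58 ± 0.29) rose likewise. These sizes depended on the border macrophage filter. Without it 32 members were called, the list's median was 1.88, and Ifi204 was at 2.66, Oasl2 at 2.92 and Ifit1 at 3.40, all still called. With the stricter filter Oasl2 was at 4.23. Ifit1 ranged from 3.50 without E4/TREM2- to 5.21 without E4/TREM2+, and Ifit3 was 3.81 in nuclei thinned to 500 UMIs.

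The transcription factors that carry the interferon signal also rose. Irf7 was 39.7 and 30.4 CPM in the P301S/EKO libraries against 4.39 and 5.51 CPM in E4 (2.78 ± 0.30, adjusted p = 0.000611). Stat2 rose by 1.42 ± 0.23. The 10 tested members that were not called included Gbp7, a guanylate-binding protein (51.3 and 77.5 CPM against 62.1 and 73.5 CPM, log2 fold change -0.15), and Trim30d, whose TREM2+ pair was above 0 (log2 ratio 0.72) and whose TREM2- pair was below (-0.37).

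The upstream sequence of some of these genes holds the interferon-stimulated response element core that STAT and IRF factors recognise, searched here as GAAA, any 2 bases and GAAA again, or on the other strand TTTC, any 2 bases and TTTC, in the 250 bases before the RefSeq start (GRCm38.p6). Promoter windows matched 26 of the 34 called interferon members, and 12 of the 26 held the core (46.2%), against 3.40% of the 9389 tested genes with a window and 2.98% of all 32851 windows of the table. Of the 10 interferon members not called, 7 held it (70%), so the core did not separate called from uncalled members. The 3 windows that follow are called genes with the core, of which Cxcl10 had the largest fold change among called activation genes and Oas1g was nearly undetected in E4. Cst7 is the DAM stage 2 gene with the largest fold change and has no match. Each is printed 5' to 3' on the gene's strand, ends 1 base before the start, and has matches in capitals.
Cxcl10: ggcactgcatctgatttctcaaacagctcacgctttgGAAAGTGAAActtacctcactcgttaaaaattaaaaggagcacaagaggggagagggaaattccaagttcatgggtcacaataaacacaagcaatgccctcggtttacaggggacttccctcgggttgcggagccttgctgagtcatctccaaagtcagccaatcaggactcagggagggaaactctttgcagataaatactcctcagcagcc
Ifit1: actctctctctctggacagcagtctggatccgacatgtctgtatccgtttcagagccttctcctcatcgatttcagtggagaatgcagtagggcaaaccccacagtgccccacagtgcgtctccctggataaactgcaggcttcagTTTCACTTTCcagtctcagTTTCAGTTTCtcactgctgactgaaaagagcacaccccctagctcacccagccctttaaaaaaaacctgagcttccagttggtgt
Oas1g: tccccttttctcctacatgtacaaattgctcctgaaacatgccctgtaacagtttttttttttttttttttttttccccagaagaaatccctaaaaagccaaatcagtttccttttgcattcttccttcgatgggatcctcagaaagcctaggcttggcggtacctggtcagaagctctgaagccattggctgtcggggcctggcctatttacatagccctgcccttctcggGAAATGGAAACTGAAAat
Cst7: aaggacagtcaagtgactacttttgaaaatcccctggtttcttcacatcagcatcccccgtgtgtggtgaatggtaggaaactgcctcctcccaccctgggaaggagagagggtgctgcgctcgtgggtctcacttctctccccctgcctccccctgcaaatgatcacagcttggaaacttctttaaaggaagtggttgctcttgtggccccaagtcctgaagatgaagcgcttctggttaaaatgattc
The windows are chr5:92348890-92349139 on the minus strand for Cxcl10, chr19:34640639-34640888 on the plus strand for Ifit1, chr5:120887614-120887863 on the minus strand for Oas1g and chr2:150570165-150570414 on the plus strand for Cst7. The match in Cxcl10 begins 213 bases before the start, those in Ifit1 104 and 85 bases before it, and the 2 in Oas1g overlap, at 18 and 12 bases. A match describes these letters and is not a measured binding site. Of 8 called DAM stage 2 genes with a window 1 held the core, and of 7 called homeostatic genes 0 did.

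MHC class I genes, which present cytosolic peptides and are interferon targets, rose in part. Of 16 tested members 7 were called higher and 1 lower, with a median of 0.80. H2-K1 was 580.3 and 402 CPM in P301S/EKO against 191 and 175 CPM in E4 (1.36 ± 0.15, adjusted p = 0.000667), and H2-D1 was 715 and 519.6 CPM against 171 and 195 CPM (1.68 ± 0.16). The Qa-region genes H2-Q6 (3.66 ± 0.26) and H2-Q7 (3.43 ± 0.29) had larger fold changes, and reads of these near-identical paralogs may be split between them, so their separate values are uncertain. Nlrc5, the transactivator of MHC class I genes, rose by 2.70 ± 0.31, and the light chain B2m by 1.08 ± 0.15, a call that was lost without E4/TREM2+ (adjusted p = 0.0773). The peptide transporter genes Tap1 (0.88 ± 0.21, adjusted p = 0.0535) and Tap2 (-0.10 ± 0.17) did not pass the test. Calr, a chaperone of the peptide-loading complex, was the member called lower (-0.56 ± 0.12).

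**Figure D2:**
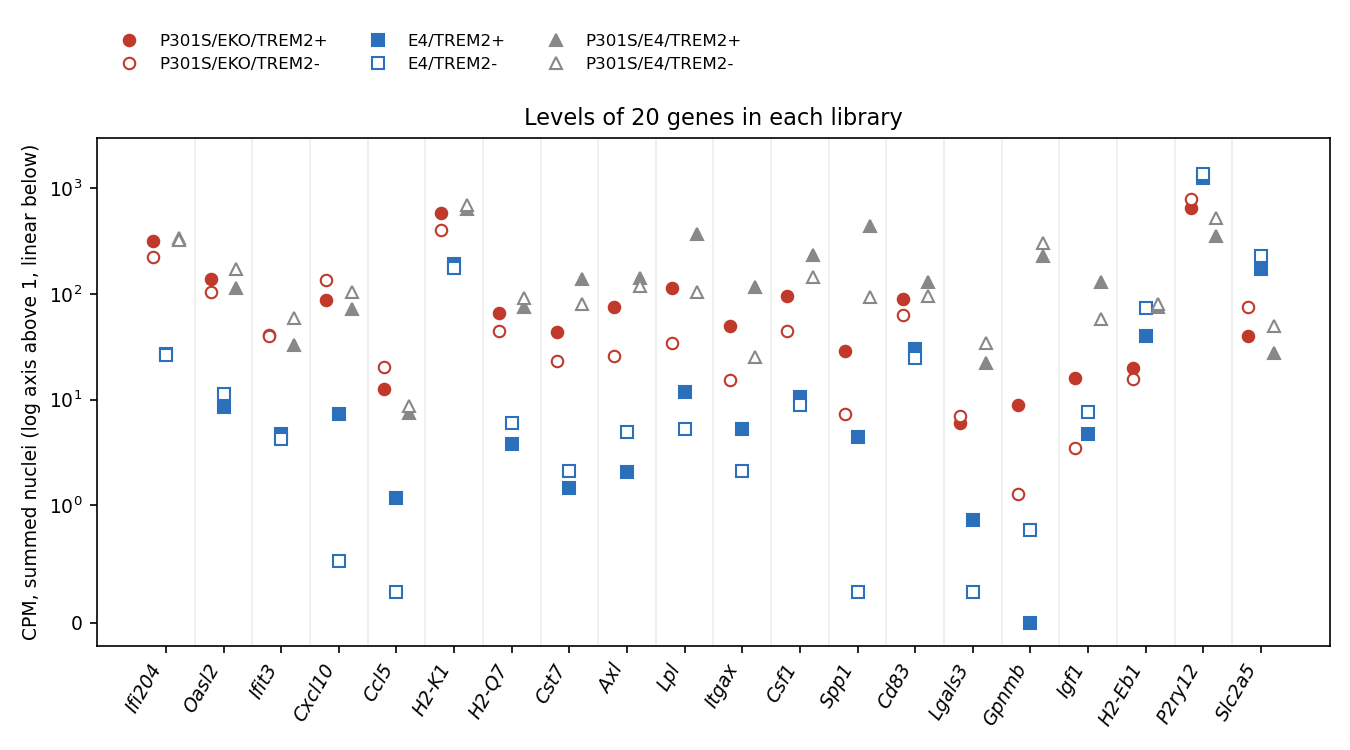
CPM of 20 genes in the 6 libraries (vertical axis logarithmic above 1 CPM, linear below); circles are P301S/EKO, squares E4, triangles P301S/E4, filled TREM2+ and open TREM2-. Ifi204 sits at 319 and 224 CPM in P301S/EKO and near 26 CPM in both E4 libraries, whereas Spp1 sits at 28.7 and 7.37 CPM in P301S/EKO and at 442 CPM in P301S/E4/TREM2+.

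The DAM programme was present in part. Of 22 tested stage 2 members, the genes of the TREM2-dependent step, 12 were called higher and 0 lower by edgeR and by DESeq2, with 15 and 0 at an unadjusted p of 0.05 or less (median 0.72), namely Axl, Cst7, Lpl, Cd9, Csf1, Itgax, Lilrb4a, Spp1, Cd63, Cadm1, Cd52 and Hif1a. Cst7, a cystatin that inhibits lysosomal proteases, reached 43.6 CPM with TREM2 and 23.4 CPM without it in P301S/EKO, and 1.46 and 2.10 CPM in E4. Its log2 fold change was 4.11 ± 0.32 (adjusted p = 7.36e-05). Cst7 passed the expression filter only through the libraries with tau, so the direction of its call was conditioned on that filter. Csf1, the microglial growth factor, was 96.3 and 44.5 CPM against 10.5 and 8.92 CPM (2.74 ± 0.22, adjusted p = 8.29e-05). Axl, a receptor for apoptotic cells, reached 76.1 CPM with TREM2 but 25.9 CPM without it in P301S/EKO, while E4 had 2.05 and 4.99 CPM (3.67 ± 0.45, adjusted p = 0.0011). For all 3 genes both P301S/EKO libraries were above both E4 libraries, as they were for 27.6% of all tested genes. Cst7 ranged from 3.40 without E4/TREM2+ to 4.81 without E4/TREM2-, and Axl from 2.73 to 4.88 without the same libraries; Axl was 2.85 without P301S/EKO/TREM2+ and 4.28 without P301S/EKO/TREM2-.

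Lpl, Itgax and Spp1 had lower levels in the TREM2- library on both backgrounds. Lpl, lipoprotein lipase, was 114 CPM with TREM2 and 34.3 CPM without it in P301S/EKO, while E4 had 11.7 and 5.25 CPM (3.03 ± 0.21, adjusted p = 4.65e-05). Itgax, the integrin subunit CD11c, was 49.6 and 15.4 CPM against 5.27 and 2.10 CPM (3.08 ± 0.30, adjusted p = 0.00035). Spp1, osteopontin, was 28.7 and 7.37 CPM against 4.39 and 0.262 CPM (2.96 ± 0.33, adjusted p = 0.000667), and its E4/TREM2- value rests on 1 UMI. Without E4/TREM2+ Spp1 was at 4.43, and in nuclei with 500 or more detected genes at 2.35. All 3 were higher in P301S/EKO in each TREM2 pair, and without a TREM2 term in the fit none passed (adjusted p = 0.289 for Spp1, 0.0677 for Lpl and 0.121 for Itgax). Without the TREM2 term, 7 of the 12 stage 2 calls were made.

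Other DAM members differed less. Cd9 was already 430 and 457 CPM in E4 and was 779 and 706 CPM in P301S/EKO (0.69 ± 0.15, adjusted p = 0.0321). Its call was lost without E4/TREM2+, at 0.46, without P301S/EKO/TREM2+, at 0.74, or without P301S/EKO/TREM2-, at 0.63. By edgeR it was also narrowly lost in thinned nuclei (adjusted p = 0.0504), with 500 or more detected genes (adjusted p = 0.0519) and without a TREM2 term (adjusted p = 0.0547). Cd63, a tetraspanin, was lost without E4/TREM2+ (adjusted p = 0.0987), without E4/TREM2- (adjusted p = 0.0879) or without P301S/EKO/TREM2- (adjusted p = 0.0611). Igf1, a growth factor, was 16.0 CPM with TREM2 and 3.52 CPM without it in P301S/EKO, while E4 had 4.68 and 7.61 CPM, so the groups overlapped (0.46 ± 0.49, adjusted p = 0.787). Of 10 stage 1 members, the TREM2-independent step, 4 were called higher (B2m, Ctsb, Lyz2 and H2-D1) and 0 lower by edgeR and by DESeq2, with 6 and 0 at an unadjusted p of 0.05 or less, and the median was 0.62. The protease gene Ctsb was lost without E4/TREM2+ (adjusted p = 0.229), without E4/TREM2- (adjusted p = 0.0778) or without P301S/EKO/TREM2+ (adjusted p = 0.324), and the lysozyme gene Lyz2 without E4/TREM2+ (adjusted p = 0.216) or without P301S/EKO/TREM2+ (adjusted p = 0.122). Without the border macrophage filter Lyz2 was at 0.38 instead of 0.91 and was not called (adjusted p = 0.366). The light chain B2m was lost without E4/TREM2+ (adjusted p = 0.0773). Tyrobp, the TREM2 adaptor, was 453 and 467 CPM against 421 and 436 CPM (0.05 ± 0.14), and the lysosomal protease Ctsd was 1893 and 2138 CPM against 1831 and 2019 CPM (0.02 ± 0.11).

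Genes nearly undetected in E4 were set apart: 5 activation members were called higher with at most 3 UMIs in each E4 library, a pattern found for 14 of all tested genes (0.113%). With so few E4 UMIs, a gene could pass the expression filter only through the P301S/EKO and P301S/E4 libraries. The direction of these calls was therefore conditioned on that filter, as was the share of 0.113%. Called genes with more E4 UMIs, but under the filter's limit in both E4 libraries, also passed only through the libraries with tau. Cst7, Ifit1, Ccl5, Ch25h and Bhlhe40 were among them, and the direction of their calls was conditioned in the same way. The galectin Lgals3, which binds damaged lysosomes, had 22 UMIs in each P301S/EKO library against 3 in E4/TREM2+ and 1 in E4/TREM2- (3.46 ± 0.56, adjusted p = 0.00682). Its call was lost without E4/TREM2- (2.58, adjusted p = 0.0814), and it was at 4.67 without E4/TREM2+ and 7.23 in thinned nuclei. Cxcl9, a T cell chemokine, had 22 and 20 UMIs against 2 and 2 (3.39 ± 0.56, adjusted p = 0.00808), and was lost without E4/TREM2+ (adjusted p = 0.0633) or without E4/TREM2- (adjusted p = 0.0765). Oas1g, an oligoadenylate synthetase, had 45 and 26 UMIs against 3 and 2 (3.80 ± 0.50, adjusted p = 0.00178). The complement component C3 had 18 and 12 UMIs against 1 and 0 (adjusted p = 0.01), which in the TREM2- pair is at least 4.88-fold higher, taking 3 counts as the floor for that library. Its call was lost without E4/TREM2- (adjusted p = 0.0614), with DESeq2 (adjusted p = 0.0581) and in nuclei with 500 or more detected genes (adjusted p = 0.0517). The fitted log2 fold change of C3, 4.69, was 7.33 without E4/TREM2+ and 3.84 without the border macrophage filter. Cd300lb, an activating myeloid receptor, had 17 and 8 UMIs against 2 and 1 (2.98 ± 0.67, adjusted p = 0.0367) and was lost without any 1 of the 4 libraries (adjusted p from 0.0892 to 0.402). Of the 5, Oas1g was called in every alternative that tested it, at 2.69 without the border macrophage filter.

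Genes of lipid-laden, terminally activated microglia were mostly not called, although 13 of 14 tested members had a fold change above 0. By edgeR and by DESeq2, 2 were called higher (Lgals3 and Mitf) and 1 lower (Ms4a7). The share called higher was 14.3%, against 1.83% of all genes. At an unadjusted edgeR p of 0.05 or less 9 were higher and 1 lower, while 867 of all 12403 tested genes were higher. The median was 0.77, also with Atp6v0d2, at 0 UMIs in both E4 libraries, at its bound. Gpnmb, a lysosomal glycoprotein, had 32 UMIs in P301S/EKO/TREM2+, 4 in P301S/EKO/TREM2-, 0 in E4/TREM2+ and 3 in E4/TREM2-, and did not pass the test (3.54 ± 1.04, adjusted p = 0.117). It passed without P301S/EKO/TREM2- (4.49, adjusted p = 5.43e-05), without P301S/E4/TREM2- (adjusted p = 0.00645), without P301S/E4/TREM2+ (adjusted p = 0.0103), with no expression filter, and without nuclei holding neuronal or glial markers (4.44, adjusted p = 0.0398). Without P301S/EKO/TREM2+ it was at 1.36 (adjusted p = 0.885). In P301S/E4 it had 1268 UMIs in TREM2+ and 2386 in TREM2-. Fabp5, a fatty acid binding protein, was 26.8 and 26.9 CPM against 14.3 and 17.6 CPM (0.70 ± 0.21, adjusted p = 0.12; it passed without either P301S/E4 library), and the lipid droplet coat protein Plin2 was 21.8 and 27.2 CPM against 13.2 and 13.1 CPM (0.84 ± 0.22, adjusted p = 0.0715). Mitf, a transcription factor of lysosomal and Gpnmb expression, was 194 and 127 CPM against 89.3 and 72.96 CPM (0.92 ± 0.14, adjusted p = 0.00441), a call lost without E4/TREM2+ (adjusted p = 0.135) or without P301S/EKO/TREM2+ (adjusted p = 0.0545). The call of Ms4a7, which is also a border macrophage marker, was lost without E4/TREM2- (adjusted p = 0.0908) and under the stricter border macrophage filter.

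Chemokines were called in both directions, but the 1 lower call, Ccl3, was lost in several alternatives. Of 13 tested members 5 were called higher (Ccl5, Ccl12, Cxcl9, Cxcl10 and Cxcl16) and 1 lower (Ccl3), with a median of 1.06. Cxcl10, the interferon-induced CXCR3 ligand, reached 86.9 CPM with TREM2 and 137 CPM without it in P301S/EKO, against 7.32 CPM in E4/TREM2+ and 0.525 CPM, or 2 UMIs, in E4/TREM2- (4.80 ± 0.49, adjusted p = 0.000432). Leaving out E4/TREM2+ gave 7.84 and leaving out E4/TREM2- gave 3.56, and it was 5.95 without nuclei over 2 times the median UMIs. These UMIs came from few nuclei: 52 of 3530 nuclei of P301S/EKO/TREM2+ (1.47%) and 68 of 4982 of P301S/EKO/TREM2- (1.36%) had any, and the highest 1% of nuclei held 94.6% and 95.8% of them. At least 1 Ifi204 UMI was found in 19.7% and 8.75% of the nuclei of the same libraries, at median depths of 804 and 568 UMIs, and in 12.2% and 7.95% of nuclei thinned to 500 UMIs. Thinned shares in E4 were 0.923% and 1.33%, and 0 of the 28 neuron-marked nuclei of P301S/EKO had one, which allows up to 10.7%. Ccl5, a T cell chemoattractant, had 46 and 63 UMIs against 4 and 1 (4.45 ± 0.54, adjusted p = 0.00112), and ranged from 3.49 without E4/TREM2- to 5.95 without E4/TREM2+. Ccl3, a macrophage inflammatory protein, was 57.4 and 44.2 CPM against 79.9 and 108 CPM (-0.95 ± 0.22, adjusted p = 0.0403). Its call was lost without E4/TREM2-, at -0.49, or without P301S/EKO/TREM2-, at -0.81. By edgeR it was also lost without a TREM2 term (adjusted p = 0.0586) and without the border macrophage filter (adjusted p = 0.0521). The same held with 500 or more detected genes (adjusted p = 0.111) or UMIs (adjusted p = 0.0767), and in thinned nuclei (adjusted p = 0.12). Cxcl16 was lost without E4/TREM2+ (adjusted p = 0.145), and Cxcl9 as given above. The neighbouring gene Ccl4 did not pass (-0.12 ± 0.14, adjusted p = 0.81).

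The other activation lists had single members that rose. Of 19 tested NF-kB and cytokine genes 1 was called, Cd83, a maturation marker, at 88.8 and 63.1 CPM against 30.2 and 24.9 CPM (1.40 ± 0.16, adjusted p = 0.000751); the list's median was 0.41. Of 10 complement genes C3 and C4b were called higher, with a median of -0.13. C4b was 47.2 and 71.4 CPM against 9.37 and 13.1 CPM (2.36 ± 0.22, adjusted p = 0.000265). Its size depended on the border macrophage filter, at 1.08 (adjusted p = 0.00772) without it and 3.49 with the stricter one. By contrast the abundant C1qb, at 2396 and 2431 CPM against 2376 and 2600.2 CPM, did not pass (-0.09 ± 0.13). The call of C3 was lost without E4/TREM2-. Of 14 phagocytic and scavenger receptors 4 were called higher (Axl, Tlr2, Cd300lf and Cd300lb), with a median of 0.07. Tlr2, a receptor for bacterial lipoproteins, was lost without E4/TREM2+ (adjusted p = 0.149) or without P301S/EKO/TREM2+ (adjusted p = 0.167). Cd300lf, a phosphatidylserine receptor, was 65.9 and 49.7 CPM against 4.68 and 3.41 CPM (3.84 ± 0.46, adjusted p = 0.00104), and 3.14 without P301S/EKO/TREM2+ and 4.54 without P301S/EKO/TREM2-.

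**Figure D3:**
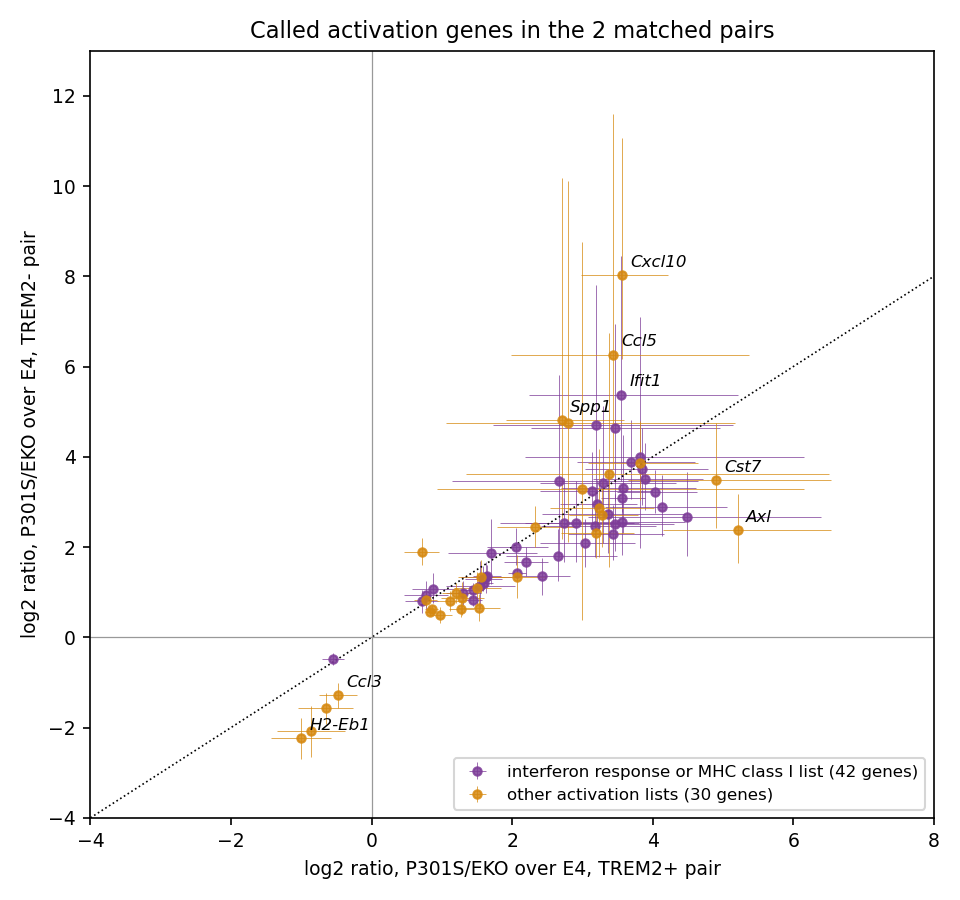
Log2 ratio of CPM, P301S/EKO over E4, in the TREM2+ pair (horizontal) and the TREM2- pair (vertical) for the 72 of 73 called activation genes with UMIs in all 4 libraries; purple points are on the interferon or MHC class I list and orange points on other lists, bars are 95% counting intervals and the dotted line marks equal ratios. Cxcl10 lies above the line (3.57 and 8.03) and Axl below it (5.22 and 2.38).

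Within single pairs, which have 1 library per genotype and therefore no test, the ratio of a gene could differ between TREM2 genotypes. Axl had a log2 ratio of 5.22 in the TREM2+ pair (95% counting interval 4.15 to 6.54) and 2.38 in the TREM2- pair (1.65 to 3.18). Cxcl10 went the other way, at 3.57 (2.98 to 4.22) and 8.03 (6.16 to 11.08). Ifi204 was at 3.57 (3.26 to 3.89) and 3.09 (2.79 to 3.41), and Lpl at 3.29 (2.82 to 3.79) and 2.71 (2.01 to 3.47). Over the interferon list the median ratio was 2.43 with TREM2 and 2.19 without, and over DAM stage 2 it was 1.09 and 0.64. These differences between pairs were not tested, and the intervals cover counting error only.

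MHC class II genes, which present antigen to CD4 T cells, were not among the genes that rose. Of 10 tested members 0 were called higher and 2 lower by edgeR and by DESeq2, with 0 and 5 at an unadjusted p of 0.05 or less, and the median was -0.64. H2-Eb1 was 19.9 and 15.7 CPM in P301S/EKO against 39.8 CPM in E4/TREM2+ and 73.7 CPM in E4/TREM2- (-1.68 ± 0.26, adjusted p = 0.00542). H2-Ab1 was 26.5 and 28.8 CPM against 41.6 and 85.6 CPM (-1.22 ± 0.28, adjusted p = 0.0379), and its call was lost without E4/TREM2- (adjusted p = 0.436) or without P301S/EKO/TREM2- (adjusted p = 0.0918), with a log2 fold change of -0.58 without E4/TREM2-. H2-Eb1 was not called in nuclei with 500 or more detected genes (adjusted p = 0.143). Cd74, the invariant chain, was 88.8 and 78.5 CPM against 95.1 and 190 CPM and did not pass (adjusted p = 0.275), though it did without E4/TREM2+ (-1.55, adjusted p = 0.00577) and without either P301S/E4 library. The E4/TREM2- library was the high one for all 3. There, 47 nuclei with at least 10 MHC class II UMIs held 46.5% of the list's UMIs, against 18 such nuclei in E4/TREM2+, 16 in P301S/EKO/TREM2+ and 11 in P301S/EKO/TREM2-. Outside those nuclei the list summed to 296 and 246 CPM in P301S/EKO, 295 CPM in E4/TREM2+ and 354 CPM in E4/TREM2-.

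Markers of border-associated macrophages moved with these genes. Of 8 tested markers 5 were called lower in P301S/EKO by edgeR (Mrc1, Pf4, Ms4a7, Stab1 and Clec10a) and 2 by DESeq2, with a median of -1.64, and the 12 markers summed to 242 and 332 CPM in P301S/EKO against 563 and 519 CPM in E4. Mrc1 was lost without E4/TREM2+ (adjusted p = 0.321) or without P301S/EKO/TREM2+ (adjusted p = 0.199), and Pf4 without E4/TREM2+ (adjusted p = 0.334), without E4/TREM2- (adjusted p = 0.0507) or without P301S/EKO/TREM2+ (adjusted p = 0.345). None of the 12 was at 0 in all 4 libraries. F13a1, Mrc1, Cd163, Cd209f and Cbr2 among them are the genes of the nucleus filter. That filter had already limited their values, and with them the Mrc1 call and the sum. With nuclei left out that held any UMI of 10 of these markers, H2-Eb1 was at -2.07 (adjusted p = 0.0032) and H2-Ab1 at -1.23 (adjusted p = 0.0457). H2-Ab1 was not called without any border macrophage filter (adjusted p = 0.0579), with 500 or more UMIs (adjusted p = 0.0875) or detected genes (adjusted p = 0.198), in thinned nuclei (adjusted p = 0.1), or without a TREM2 term (adjusted p = 0.063). Among kept nuclei, 1.27% and 0.74% had 3 or more UMIs over these markers in P301S/EKO, against 2.51% and 2.70% in E4. Sums over nuclei do not separate fewer cells of a type from less RNA per cell, and this was not tested.

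Many homeostatic microglial genes fell. Of 25 tested members 14 were called lower and 0 higher by edgeR and by DESeq2, with 21 and 0 at an unadjusted p of 0.05 or less, and the median was -0.67. Slc2a5, the fructose transporter, was 39.7 and 75.6 CPM in P301S/EKO against 174 and 227 CPM in E4 (-1.90 ± 0.16, adjusted p = 0.000153), and Upk1b was 14.1 and 30.8 CPM against 60.3 and 78.99 CPM (-1.75 ± 0.22). The purinergic receptor P2ry12 was 659 and 797 CPM against 1258 and 1381 CPM (-0.91 ± 0.12, adjusted p = 0.00242), a call lost without E4/TREM2+ (adjusted p = 0.0502). The fractalkine receptor Cx3cr1 fell by 0.86 ± 0.12. The number of homeostatic calls was 5 when E4/TREM2+ was left out and 8 when either P301S/EKO library was. Lineage factors were mostly not called: of 19 tested Runx1 (0.59 ± 0.12) and Bhlhe40 (1.90 ± 0.41) rose. Runx1 was lost without any 1 of the 4 libraries (adjusted p from 0.141 to 0.224), and Bhlhe40 without E4/TREM2+ (adjusted p = 0.519), without P301S/EKO/TREM2+ (adjusted p = 0.108) or without P301S/EKO/TREM2- (adjusted p = 0.0528).

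A few immediate early genes, which are induced within minutes by stimulation or handling, fell. Of 15 tested 4 were called lower (Egr3, Ier2, Btg2 and Zfp36) and 0 higher by edgeR, with 9 and 1 at an unadjusted p of 0.05 or less and 5 and 0 by DESeq2, and the median was -0.76. Zfp36, which destabilises cytokine mRNAs, was 50.2 and 57.3 CPM against 149.6 and 96.6 CPM (-1.21 ± 0.21, adjusted p = 0.00955), and was lost without E4/TREM2+ (adjusted p = 0.0987) or without P301S/EKO/TREM2+ (adjusted p = 0.115). Egr3 was lost without E4/TREM2- (adjusted p = 0.224), without P301S/EKO/TREM2+ (adjusted p = 0.0579) or without P301S/EKO/TREM2- (adjusted p = 0.154), Ier2 without E4/TREM2+ (adjusted p = 0.159), without E4/TREM2- (adjusted p = 0.157) or without P301S/EKO/TREM2+ (adjusted p = 0.429), and Btg2 without E4/TREM2+ (adjusted p = 0.0881), without E4/TREM2- (adjusted p = 0.199) or without P301S/EKO/TREM2+ (adjusted p = 0.268).

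Members of the metabolic and signalling lists were called less often than interferon or DAM members. Of 18 cholesterol synthesis genes 0 were called in either direction by edgeR or DESeq2, with 2 lower at an unadjusted p of 0.05 or less (median -0.12). Of 14 efflux and storage genes Lpl and Ch25h were called higher (14.3%, against 1.83% of all genes, median 0.38). At an unadjusted edgeR p of 0.05 or less 6 of the 14 were higher and 0 lower. Ch25h, which makes the oxysterol 25-hydroxycholesterol and is an interferon target, was 11.9 and 5.13 CPM against 1.46 and 1.05 CPM (2.66 ± 0.47, adjusted p = 0.0116), a call lost without E4/TREM2+ (adjusted p = 0.313). Of 15 glycolysis genes Pfkl, Pfkfb3 and Hif1a were called higher (20%, against 1.83% of all genes, median 0.34). Fold changes were above 0 for 13 of the 15, with 7 higher and 0 lower at an unadjusted edgeR p of 0.05 or less. Pfkl was lost without any 1 of the 4 libraries (adjusted p from 0.124 to 0.313), and Pfkfb3 without E4/TREM2+ (adjusted p = 0.0886). Hif1a, the hypoxia factor, was 209 and 146 CPM against 91.04 and 74.3 CPM (1.05 ± 0.14, adjusted p = 0.00223). Of 17 ITAM signalling genes the Src-family kinase Fgr was called, at 128 and 31.4 CPM against 16.1 and 9.71 CPM (2.41 ± 0.26, adjusted p = 0.000531), and not without a TREM2 term; it was at 1.79 without E4/TREM2+. Of 9 tested proliferation genes 0 were called by edgeR or DESeq2, and at an unadjusted p of 0.05 the count was also 0, with 7 of the 16 too low to test.

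Several of the largest decreases were neuronal transcripts. Among the 10 called genes with the lowest fold changes Meg3, a neuronal long non-coding RNA, was 144 and 237 CPM in P301S/EKO, 479 CPM in E4/TREM2+ and 1693 CPM in E4/TREM2- (-2.32 ± 0.24, adjusted p = 0.000432). Nuclei with at least 20 neuron marker UMIs and more neuron than microglia UMIs numbered 10 and 18 in P301S/EKO and 30 and 63 in E4. With 3 or more neuron marker UMIs the shares were 8.30% and 3.77% in P301S/EKO and 3.75% and 4.97% in E4. Meg3 is itself on the neuron marker list and counts towards both limits. Without nuclei holding neuronal or glial markers Meg3 was at -0.76 and was not called (adjusted p = 0.608). That step left nuclei out partly by their Meg3 UMIs, so its outcome for Meg3 was partly fixed in advance. Of 15 tested neuron markers 2 were called lower. Astrocyte markers were on the other side: all 10 had a fold change above 0, Gfap was called (2.45 ± 0.36), and the list summed to 793 and 877 CPM in P301S/EKO against 425 and 451 CPM in E4. The part of RNA from astrocytes in the activation genes was not tested.

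**Figure D4:**
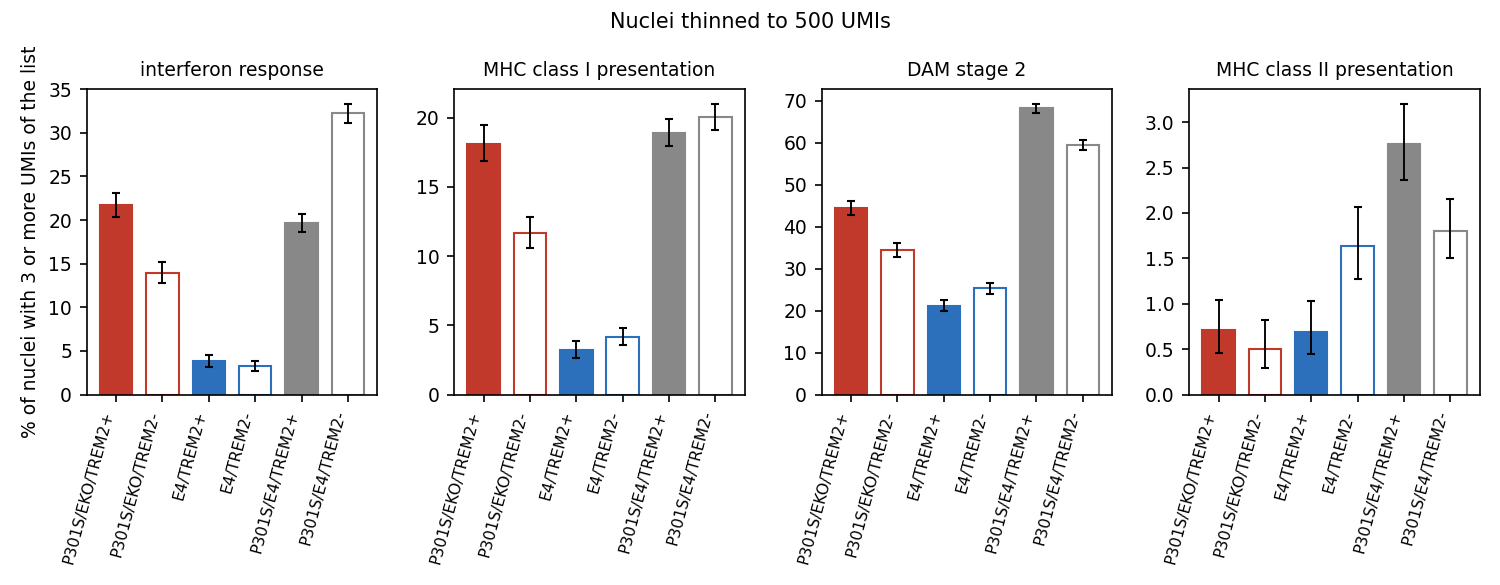
Percent of nuclei with at least 3 UMIs of a list after each nucleus was thinned to 500 UMIs, for 4 lists and 6 libraries; bars are shares with 95% exact binomial intervals, filled TREM2+ and open TREM2-, red P301S/EKO, blue E4, grey P301S/E4. Interferon shares are 21.7% and 13.9% in P301S/EKO and below 4% in both E4 libraries.

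Per nucleus, the interferon genes were found in a larger share of nuclei in P301S/EKO. With nuclei thinned to 500 UMIs, which left out 1813 shallower nuclei of P301S/EKO/TREM2-, 1467 of E4/TREM2+, 410 of E4/TREM2- and 0 of P301S/EKO/TREM2+, at least 3 interferon UMIs were found in 21.7% of nuclei of P301S/EKO/TREM2+ (95% exact binomial interval 20.4 to 23.1) and 13.9% of P301S/EKO/TREM2- (12.8 to 15.2). The shares were 3.81% (3.19 to 4.50) in E4/TREM2+ and 3.25% (2.73 to 3.83) in E4/TREM2-. Unthinned shares were 39.9%, 17.5%, 7.21% and 8.15% in the same order. Neuron-marked nuclei, which should lack the response, give a weak limit on background: 0 of 28 in P301S/EKO met it after thinning, which allows up to 10.7%, and 0 of 93 in E4, which allows up to 3.23%. Their median depth over the 4 libraries was 3090 UMIs. The DAM stage 2 list was met in 44.4% and 34.5% of nuclei in P301S/EKO against 21.2% and 25.3% in E4. Of the neuron-marked nuclei 0 of 28 in P301S/EKO and 2 of 93 in E4 met it. Unthinned DAM stage 2 shares were 71.4% and 44.5% against 31.5% and 46.6%, so the TREM2- pair had no higher share in P301S/EKO before thinning, where the median depth was 568 UMIs against 707. MHC class I shares were 18.1% and 11.7% against 3.23% and 4.13%.

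Nuclei meeting the interferon threshold and nuclei meeting the DAM stage 2 threshold overlapped. The DAM stage 2 threshold was also met by 21.2% and 25.3% of E4 nuclei. In thinned nuclei of P301S/EKO/TREM2+, Cd9 was found in 32.3% and Lpl in 4.08%. The threshold therefore does not mark DAM nuclei, and the overlap cannot show whether the 2 programmes share nuclei. In P301S/EKO/TREM2+, 21.9% of nuclei meeting the DAM stage 2 threshold also met the interferon threshold, and 21.6% of the remaining nuclei did. In P301S/EKO/TREM2- these shares were 16.3% and 12.7%. Cells of 1 library are not replicates, so these shares carry no test.

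The levels with tau and APOE4 together are set beside these values for scale. The P301S/E4 libraries are compared with the same E4 libraries, so the contrasts are not independent. Of the 12403 genes, 2178 were called between P301S/E4 and E4 (17.6%, with 8.36% higher and 9.2% lower in P301S/E4) and 469 between P301S/E4 and P301S/EKO (3.78%, of which 1.88% of all genes were higher in P301S/E4). Of 44 tested interferon members 1, Ifi207, was higher in P301S/E4 than in P301S/EKO (1.09, adjusted p = 0.0194) and 0 were lower by edgeR. Nlrc5 (0.93 ± 0.23, adjusted p = 0.0479) and Ch25h (1.53 ± 0.30, adjusted p = 0.0192) were also higher. Ifi204 was 338 and 324 CPM in P301S/E4, and its difference from P301S/EKO was 0.32 ± 0.14 (adjusted p = 0.251), while Ifit3 differed by 0.15 ± 0.22 (adjusted p = 0.785) and Cxcl10 by -0.33 ± 0.33 (adjusted p = 0.661). A difference that misses the threshold does not show equal levels. The additive fit also averages 2 TREM2 pairs that went opposite ways. With TREM2 the interferon list summed to 3606 CPM in P301S/EKO and 3192 CPM in P301S/E4. Without TREM2 it summed to 2776 and 4515 CPM. Shares of thinned nuclei with 3 or more interferon UMIs were 21.7% and 19.6% with TREM2, and 13.9% and 32.2% without it. The difference between these pairs was not tested. Of 22 DAM stage 2 members 13 were higher in P301S/E4 than in P301S/EKO and 0 lower. Spp1 was 442 and 93.4 CPM in P301S/E4, a difference of 3.89 ± 0.20 (adjusted p = 2.76e-06) from P301S/EKO, Lpl differed by 1.67 ± 0.16 (adjusted p = 0.000554), Cst7 by 1.72 ± 0.19 (adjusted p = 0.00119) and Igf1 by 3.29 ± 0.37 (adjusted p = 0.0013). Gpnmb differed by 5.67 ± 0.41 (adjusted p = 5.99e-05). H2-Eb1, lower in P301S/EKO than in E4, was 76.0 and 80.4 CPM in P301S/E4 (2.13 ± 0.25, adjusted p = 0.0017).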

How the data were processed

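Single-nucleus RNA-seq was measured in 6 libraries. The authors deposited raw UMI counts per gene and nucleus, made with Cell Ranger 3.0.1 per the file headers and mapped to mm10 per the labels. Whether the deposited nuclei had passed a doublet filter is not given in the sources used here, and no doublet caller was run. Counts were summed per library over the kept nuclei. The main test was edgeR 4.0.16 (quasi-likelihood, TMM factors, filterByExpr by TREM2 genotype) in R 4.3.3, with additive terms for background and TREM2 genotype over all 6 libraries, 2 residual degrees of freedom and Benjamini-Hochberg adjustment over 12403 genes. With 1 pool per genotype, p-values rest on the spread left after the background and TREM2 terms. That spread holds any difference of the TREM2 effect between backgrounds, together with noise. It is not a spread between replicate pools or mice. CPM is UMIs per 1000000 kept UMIs, pair ratios carry exact conditional binomial 95% intervals, and intervals and floors cover counting error only. Nuclei were thinned to 500 UMIs for shares, with Python 3.11.15, numpy 2.4.6, scipy 1.17.1 and pandas 2.3.3. Plots used matplotlib 3.10.9. Coordinates are from GENCODE vM21.

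Members and lists were chosen with earlier results of these data known. Named genes were the genotype genes, anchor activation genes, members nearly undetected in E4, the 10 called genes at each end with at least 100 UMIs and the same direction in both pairs, and up to 4 called members per list; the text summarises some. Others, such as Stat2, Zbp1, Isg15, Nlrc5, Calr and Gfap, were named for their role after their values were seen, and their calls were not followed one by one across alternatives. Alternatives were DESeq2 1.42.0, other scaling, gene and nucleus filters, only the 4 libraries, no TREM2 term, each library left out, and other UMI thresholds for shares. The stricter border macrophage filter was chosen after seeing the data. The fit was tested on simulated data. Some genes are not reported here.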

Additional observations from a re-analysis of the deposited data

Results flagged for a closer look

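The 6 listed genes given here had ratios of P301S/EKO over E4 on opposite sides of 0 in the 2 TREM2 pairs, and these differences were not tested. Igf1 had a log2 ratio of 1.77 in the TREM2+ pair and -1.11 in the TREM2- pair, and Trim30d had 0.722 and -0.375. The cathepsin gene Ctsc had 0.462 and -0.144, and Inpp5d, a lipid phosphatase, had -0.198 and 0.0801. C1qa had 0.0405 and -0.214, and Mylip had 0.165 and -0.242. Over all 12403 genes, 130 had opposite pairs with both counting intervals off 0.

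Nuclei removed by the border macrophage filter also carried interferon transcripts. In P301S/EKO/TREM2- they summed to 4950.0 CPM of the interferon list, against 3623 CPM in the removed nuclei of E4/TREM2-. In the TREM2+ pair the removed nuclei had 3646 CPM in P301S/EKO and 3679 CPM in E4. The kept nuclei had 2776 and 1098 CPM in the TREM2- pair and 3606 and 1263 CPM in the TREM2+ pair.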

How the results depend on the processing

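No paired analysis was possible by replicate number because each genotype has 1 library; the pairs were instead matched by the TREM2 term, which all fits but 1 carry. The 379 calls became 873 without an expression filter, 941 with only the 4 libraries and 234 without the TREM2 term, and ranged from 139 to 1130 with 1 library left out. Higher calls (227) were 485 without the filter and 475 with 4 libraries, and ranged from 96 to 577. Lower calls (152) were 101 with DESeq2, 388 without the filter, 466 with 4 libraries and 72 without the TREM2 term, and ranged from 43 to 553. DAM stage 2 calls (12) were 7 without the TREM2 term, and homeostatic calls (14) ranged from 5 to 21 with 1 library left out. Activation (51 to 94), interferon (27 to 40) and MHC class I calls (6 to 10) stayed within 1.5 times.

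Of 71 called named genes, 30 were called in every alternative that tested them, 41 were not called in at least 1, and 0 reversed. Among uncalled genes Igf1 turned to -0.64 without E4/TREM2+, -0.50 without P301S/EKO/TREM2+ and -0.18 without the border macrophage filter, Ccl4 to 0.0038 without P301S/EKO/TREM2+, and Cd74 to 0.065 without E4/TREM2-. With 1 library left out Ccl4 ranged from -0.24 to 0.0038 and Cd74 from -1.55 to 0.065. The interferon share ratio in the TREM2+ pair, 5.71, was 2.89 at 2 UMIs and 13.7 at 5. In the TREM2- pair, 4.29, it was 2.15 unthinned, 2.41 at 2 UMIs and 7.10 at 5. The DAM stage 2 ratio, 2.10 in the TREM2+ pair, was 2.26 unthinned, 1.51 at 2 UMIs and 4.02 at 5. In the TREM2- pair, 1.36, it was 0.955 unthinned, 1.14 at 2 UMIs and 2.18 at 5. The cause was not tested.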

Other observations

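Genes of no activation list were also nearly undetected in E4 and called higher in P301S/EKO. These too could pass the expression filter only through the libraries with tau. Gbp2b, a guanylate-binding protein, had 24 and 26 UMIs in P301S/EKO against 0 and 2 in E4 (log2 fold change 4.60 ± 0.69, edgeR, adjusted p = 0.00416). Cd69, an early activation receptor, had 31 and 22 UMIs against 3 and 0 (4.10 ± 0.70, adjusted p = 0.0097). The chemokine Cxcl5 had 6 and 17 UMIs against 0 and 0, at least 8.21-fold higher with 3 counts as the floor over the E4 group. Lox, lysyl oxidase, had 58 and 4 UMIs against 0 and 0, at least 22.1-fold higher, with most of its UMIs in the TREM2+ library.

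Lig4, a DNA ligase gene chosen after its values were seen, was 83.3 and 64.4 CPM in P301S/EKO, 9.37 and 9.45 CPM in E4, and 10.3 and 8.42 CPM in P301S/E4. It was higher in P301S/EKO than in E4 (2.91 ± 0.22, adjusted p = 6.16e-05), and lower in P301S/E4 than in P301S/EKO (-2.96 ± 0.20, adjusted p = 5.2e-05). Near Apoe, 37 genes within 1 Mb were tested and 1, Bcl3, was called higher (1.87 ± 0.44, adjusted p = 0.0472). It was also the 1 call among 90 genes tested within 5 Mb. Over all tested genes 3.06% were called, so these counts do not set the neighbourhood of Apoe apart.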
